A study of Mus musculus with 27 samples.

Results

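Mast cell genes were described in epididymal adipose tissue (EAT), the visceral fat pad beside the epididymis, of mice on 3 diets. The 8 genes were Cpa3, Mcpt4, Cma1, Tpsb2, Kit, Ms4a2, Fcer1a and Hdc, chosen because mast cells are known to express them and matched by symbol in the annotation of the array. All 8 were found among 18193 measured genes. Each gene was read from the probe set, among those annotated to a single gene, that had the highest mean over the 27 arrays. The mice were male C57BL/6J, obtained at 5 weeks of age and housed 3 per cage. They were fed for 18 weeks, 9 mice per diet, with the Western diet containing 0.05% quercetin (a plant flavonol), with the Western diet alone, or with the AIN93G control diet. The Western diet gave 39.9% of energy from fat and 34.0% from sucrose, and held 0.15% cholesterol. Total RNA of each mouse went onto its own Affymetrix mouse genome array, so each array is 1 mouse. Mice of a cage shared their surroundings, and the cage of each mouse is not given in the sources used here. Each mouse's tissue was a mixture of cells, and in such a mixture fewer mast cells and less RNA per mast cell cannot be told apart.

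Mast cells are tissue-resident immune cells that arise from bone marrow progenitors and mature where they settle, around vessels and in connective tissue. Stem cell factor keeps them alive through the receptor tyrosine kinase Kit. IgE bound to the high-affinity receptor FceRI arms them, and an antigen that links the bound IgE triggers the release of granules that hold histamine, heparin and proteases. Mast cells are present in mouse visceral fat, and their number there has been linked to obesity.

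The array value table holds linear signals that were normalized here and are given as log2 signal, with a floor of 1 on the linear scale (0 on the log2 scale). The median probe set of an array had a log2 signal of 5.18. Most of the mast cell genes were near or below it. Only Kit lay above the median gene in mean signal, at percentile 60.9 of all genes. Cpa3 (percentile 42.8) and Cma1 (41.9) came next, then Hdc (30.3), Mcpt4 (26.3), Tpsb2 (15.1), Fcer1a (13.5) and Ms4a2 (10.9). Tpsb2, Ms4a2 and Fcer1a were below the array median on all 27 arrays and at the floor on 3, 2 and 3 of them. Signals are not corrected for how well each probe set binds, so these percentiles do not order the genes by amount of mRNA. The values table gives no call of presence, and the number of arrays limits the precision.

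The sample titles and sources name EAT, whereas the extraction text of the same labels names liver. The 6 measured adipocyte markers (Adipoq, Lep, Cidec, Lpl, Fabp4 and Pparg) lay at or above percentile 94.4 of all genes and below the median of all gene values on none of the arrays. In 7 arrays (quercetin replicates 1, 3 and 5, Western replicate 7 and control replicates 4, 6 and 9) the mean over 7 testis genes was more than 2 log2 units above the median of the 27 arrays. The same held for smooth muscle genes in control replicates 2 and 4 and for B cell genes in control replicate 3. Liver genes (Alb, Ttr, Apoa2, Fgb, Ahsg and Tat) were high by the same measure in 9 arrays (quercetin replicates 2, 5 and 8, Western replicates 1, 4, 5 and 6 and control replicates 1 and 4), with a mean over the 6 of 2.72 to 8.58 in quercetin mice, 2.42 to 10.8 in Western mice and 2.56 to 8.17 in control mice. Both the liver list and its arrays were looked at after the data were seen. No mast cell gene passed the test in any comparison without the liver arrays or without the testis, smooth muscle and B cell arrays. Of all genes, 8.66% and 16.6% passed in these 2 settings for Western against control. The shares were 0% and 0.0055% for quercetin against Western, and 1.1% and 6.98% for quercetin against control. Such low shares for quercetin against Western left almost no room for a mast cell gene to pass. The log2 ratio of the 3 prime to the 5 prime actin control probe sets ran from 0.914 to 1.37 in quercetin mice, from 0.662 to 0.938 in Western mice and from 0.811 to 1.38 in control mice. Its part in the values below was not tested.

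None of the 8 mast cell genes changed between diets by limma after Benjamini-Hochberg adjustment over all genes (adjusted p under 0.05). The Western diet against the control diet moved 3220 genes (17.7% of those tested; 2052 higher and 1168 lower, or 2323 and 580 when arrays were scaled to 1 median), with 0 of 8 mast cell genes among them. Quercetin in the Western diet against the Western diet alone moved 61 genes (0.335%), again with 0 of 8. Quercetin against the control diet moved 1212 genes (6.66%) with 0 of 8, and the test over the 3 diets together passed 2905 genes (16%) with 0 of 8. At an unadjusted p under 0.05 by limma the mast cell genes past the threshold were none for Western against control (30.7% of all genes), Ms4a2 for quercetin against Western (13.7% of all genes), and Kit and Hdc for quercetin against control (21.9% of all genes). No mast cell gene had diet groups that did not overlap, which 1.29%, 0.269% and 0.247% of all genes had in those 3 comparisons. The median log2 fold change over the 8 genes was 0.36 for Western against control, -0.49 for quercetin against Western and -0.19 for quercetin against control, beside medians of all genes of 0.00029, 0.019 and 0.027. The Western group stands in the first and in the second of these comparisons, with opposite signs, so the medians do not support each other.

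**Figure D1:**
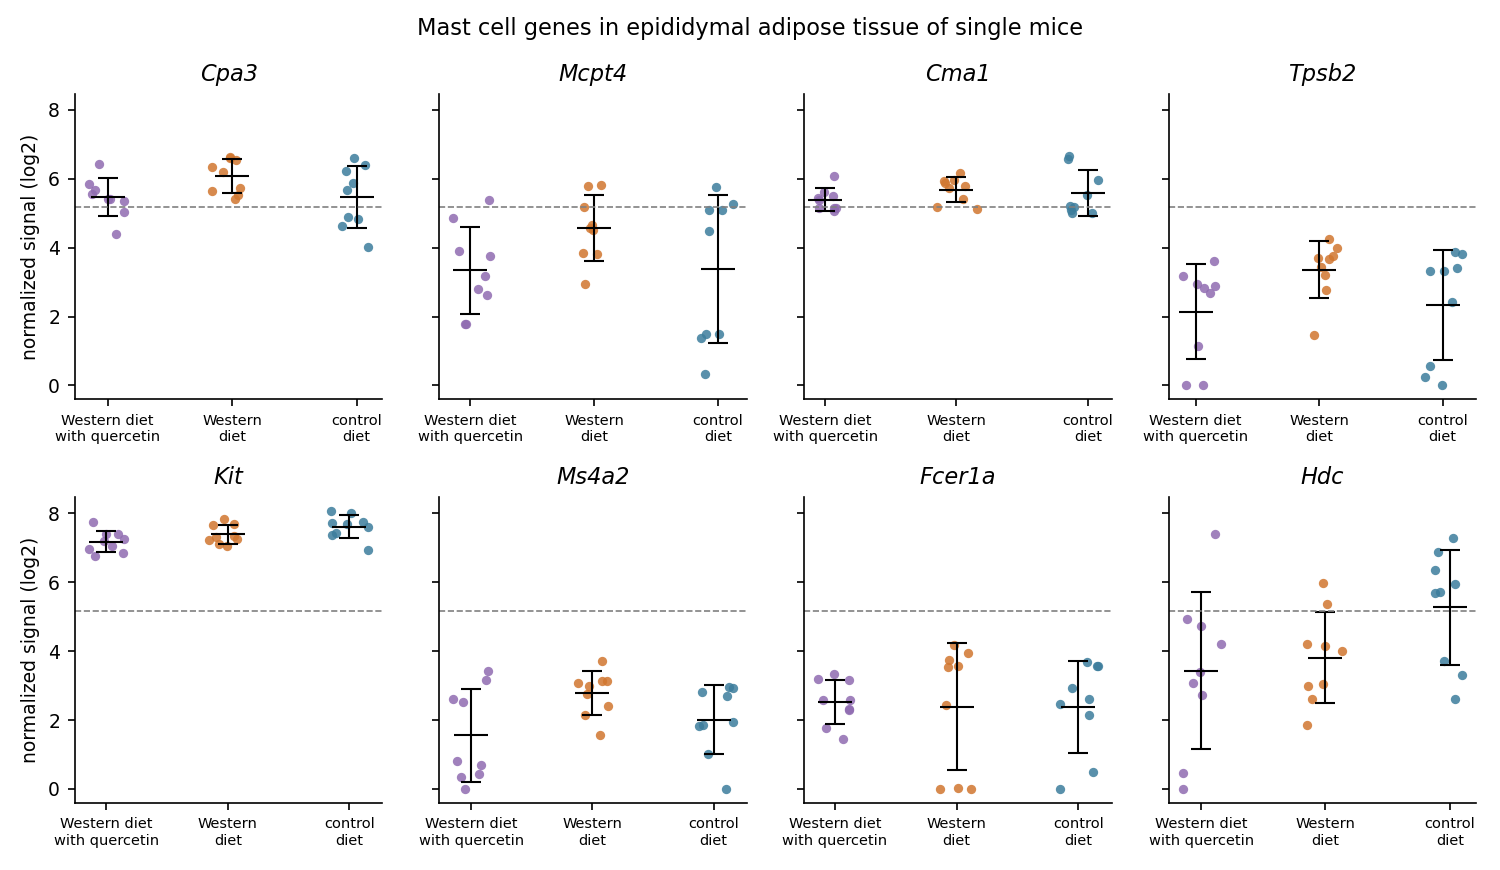
Normalized log2 signal (vertical axis) of the 8 mast cell genes in single mice (points) on the Western diet with quercetin, the Western diet and the control diet, with the mean and SD of 9 mice per diet in black and the array median of 5.18 as a dashed line. The diets overlap for every gene, and only Kit lies above the dashed line in all 27 mice.

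The granule proteases were spread as widely within a diet as between diets. Cpa3 encodes carboxypeptidase A3, a zinc protease stored with heparin in the granules. Its log2 signal ran from 4.41 to 6.44 in quercetin mice (median 5.41), from 5.40 to 6.63 in Western mice (median 6.20) and from 4.01 to 6.62 in control mice (median 5.68). Of the quercetin mice 3 were below every Western mouse, and the control mice reached from under the lowest quercetin mouse to the level of the highest Western mouse. The mean was 5.46 ± 0.55 in quercetin mice, 6.07 ± 0.49 in Western mice and 5.46 ± 0.90 in control mice (SD, n = 9 each). The Western mean was 1.53-fold the control mean (95% interval 0.99 to 2.36, limma adjusted p = 0.174), and the quercetin mean was 0.656-fold the Western mean (0.425 to 1.01, adjusted p = 0.38). Quercetin and control mice had nearly the same mean Cpa3, with an interval of the ratio of 0.649 to 1.54.

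Mcpt4 encodes mast cell protease 4, the chymase that is the closest mouse counterpart in function to human chymase. Its log2 signal ran from 1.77 to 5.38 in quercetin mice (median 3.17), from 2.94 to 5.83 in Western mice (median 4.57) and from 0.32 to 5.77 in control mice (median 4.50). The control mice fell into 2 sets, with 4 mice (replicates 6, 7, 8 and 9) at 0.32 to 1.5 and 5 mice at 4.50 to 5.77. The gap of 2.99 between these sets was the widest between neighbouring mice for any mast cell gene in any diet, and the same 4 control mice were the 4 lowest for Cpa3, at 4.01 to 4.89 against 5.68 to 6.62 in the other 5. The labels name no property that sets these mice apart. The Western mean of Mcpt4 was 2.28-fold the control mean (0.859 to 6.04, limma adjusted p = 0.25) and the quercetin mean 0.426-fold the Western mean (0.161 to 1.13, adjusted p = 0.452).

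Cma1 encodes mast cell protease 5, an elastase-like member of the chymase family that is stored together with Cpa3. Its log2 signal ran from 5.06 to 6.09 in quercetin mice (median 5.37), from 5.13 to 6.16 in Western mice (median 5.79) and from 5.00 to 6.67 in control mice (median 5.21). The highest values were in 2 control mice, at 6.58 and 6.67, and the other 7 control mice were at or under 5.96. Its ratio was the closest to 1 among the proteases, at 1.07 for Western over control (0.782 to 1.48) and 0.817 for quercetin over Western (0.595 to 1.12), with limma adjusted p of 0.802 and 0.636.

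Tpsb2 encodes mast cell protease 6, a tryptase that forms tetramers on heparin. Its log2 signal ran from 0 to 3.61 in quercetin mice (median 2.81), from 1.46 to 4.25 in Western mice (median 3.67) and from 0 to 3.89 in control mice (median 3.32). None of the 9 quercetin mice was above the Western median, and 2 quercetin mice and 1 control mouse were at the floor. The quercetin mean was 0.429-fold the Western mean (0.183 to 1.00, limma adjusted p = 0.368). A second Tpsb2 probe set gave 2.51 ± 1.09 in quercetin mice, 2.60 ± 1.05 in Western mice and 2.56 ± 0.83 in control mice (SD, n = 9 each), and so did not carry that difference.

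**Figure D2:**
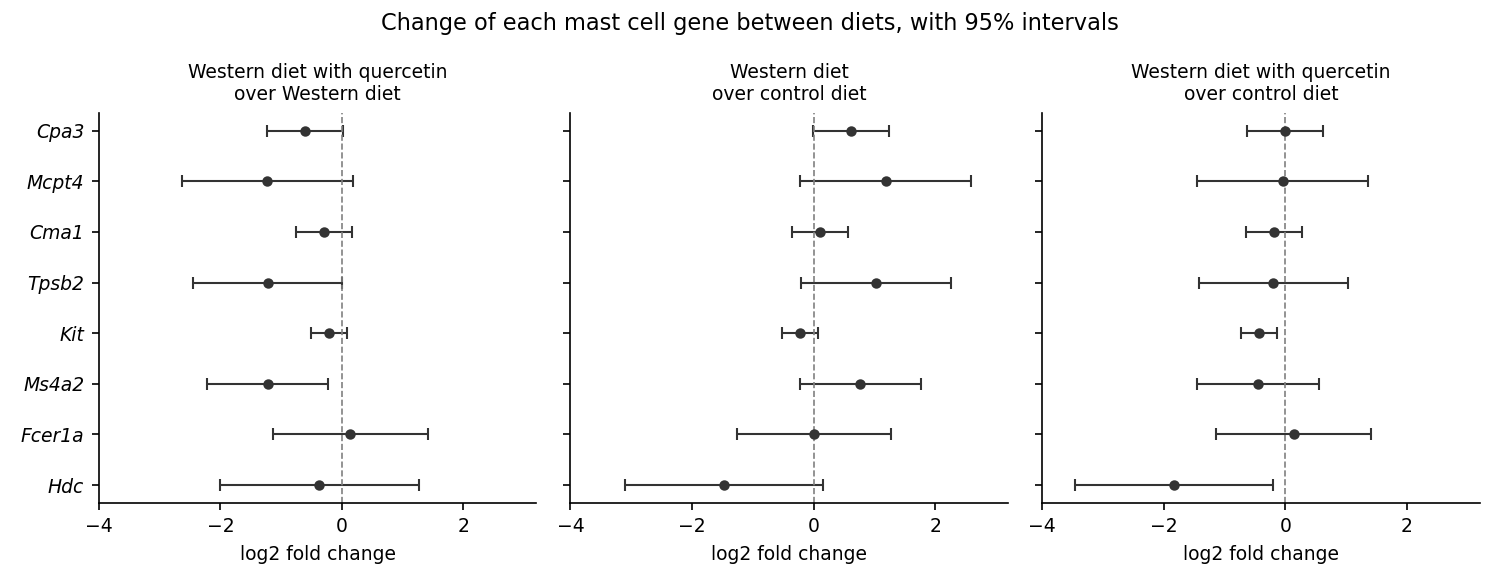
Log2 fold change (horizontal axis) of each mast cell gene with its 95% interval from limma, for quercetin over Western, Western over control and quercetin over control. The intervals leave out 0 for Ms4a2 in the first panel and for Kit and Hdc in the third, before adjustment over all genes.

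The promoters of the 3 proteases that varied together between mice (values below) are shown because members that move together invite a look at their start sites. They are RefSeq sequences of build GRCm38.p6, from 250 bases before to 49 bases after the first transcribed base, 5′ to 3′ along the gene. Capitals mark the words AGATAA and AGATAG, or the same with T as the first base (TGATAA and TGATAG), on either strand, which GATA factors are known to bind. GATA2 is a transcription factor that mast cells need.
Cpa3, chr3:20242132-20242431, minus strand: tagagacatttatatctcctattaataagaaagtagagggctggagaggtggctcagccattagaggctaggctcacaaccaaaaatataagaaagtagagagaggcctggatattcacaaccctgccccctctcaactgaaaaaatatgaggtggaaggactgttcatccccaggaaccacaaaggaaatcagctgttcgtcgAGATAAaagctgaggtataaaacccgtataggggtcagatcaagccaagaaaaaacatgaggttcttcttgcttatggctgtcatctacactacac
Mcpt4, chr14:56062261-56062560, minus strand: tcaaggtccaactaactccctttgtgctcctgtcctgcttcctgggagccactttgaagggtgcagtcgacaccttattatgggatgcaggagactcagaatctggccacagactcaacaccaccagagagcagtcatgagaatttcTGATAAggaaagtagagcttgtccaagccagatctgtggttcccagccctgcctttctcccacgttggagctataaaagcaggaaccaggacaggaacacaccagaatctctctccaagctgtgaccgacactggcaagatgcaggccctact
Cma1, chr14:55944626-55944925, minus strand: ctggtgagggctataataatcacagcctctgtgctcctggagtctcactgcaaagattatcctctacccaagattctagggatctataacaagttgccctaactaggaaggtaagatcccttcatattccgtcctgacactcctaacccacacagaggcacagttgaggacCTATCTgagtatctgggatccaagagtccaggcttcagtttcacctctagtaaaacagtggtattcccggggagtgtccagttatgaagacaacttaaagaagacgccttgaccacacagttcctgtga
Each of these 3 windows held 1 such word, starting at -46 in Cpa3, -103 in Mcpt4 and -79 in Cma1, counted from the first transcribed base at +1. Promoters were listed for 7 of the 8 genes, Tpsb2 being the other, and 6 of their 8 windows held the word (Kit has 2 windows, both without it). Among all 32851 promoter windows, 29.8% held it. A match is only a run of letters, and no binding was measured.

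Kit, the receptor for stem cell factor, was the gene with the strongest signal and the least spread. Its log2 signal ran from 6.76 to 7.76 in quercetin mice (median 7.19), from 7.04 to 7.85 in Western mice (median 7.33) and from 6.94 to 8.07 in control mice (median 7.70). Only 1 of 9 quercetin mice was above the control median, and 2 were below every control mouse. The mean was 7.18 ± 0.32 in quercetin mice, 7.39 ± 0.28 in Western mice and 7.62 ± 0.34 in control mice (SD, n = 9 each). The quercetin mean was 0.74-fold the control mean (0.603 to 0.908, limma adjusted p = 0.0658 over all genes). This value lay close to the threshold, and it passed without control replicate 6 (adjusted p = 0.0182), without quercetin replicate 6 (0.0287), with array weights (0.0198) and when only genes above the median mean were tested (0.0403). Western over control was 0.854-fold (0.695 to 1.05) and quercetin over Western 0.867-fold (0.706 to 1.06), with adjusted p of 0.299 and 0.588. A dimmer second Kit probe set gave 3.53 ± 0.99 in quercetin mice, 3.92 ± 0.53 in Western mice and 4.03 ± 0.63 in control mice.

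Kit is also made by cells other than mast cells, among them melanocytes and the interstitial cells of Cajal. Of 3 measured genes of interstitial cells of Cajal, 1 (Ano1, a chloride channel) fell in Western against control mice (17.7% of all genes were called). In quercetin against control mice, the comparison in which Kit lay close to the threshold, 0 of 3 passed (6.66% of all genes). All 3, Kit among them, were at an unadjusted p under 0.05 by limma there (21.9% of all genes were). The median log2 fold change of the list was -0.949. As 1 of the 3 is Kit itself, the mean was taken over Ano1 and Prkcq, and it ran from 4.42 to 7.22 in quercetin mice, from 4.58 to 6.68 in Western mice and from 5.66 to 8.77 in control mice. None of 5 melanocyte genes passed in Western against control mice (17.7% of all genes were called) or in quercetin against control mice (6.66%). In the latter comparison 1 of 5 was at an unadjusted p under 0.05 by limma, and the median log2 fold change of the list was 0.333. Smooth muscle genes, 2 of 7 of which (Myh11 and Cnn1) fell in Western against control mice (17.7% of all genes were called) and 0 of 7 passed in quercetin against control mice (6.66%), had a mean of 6.93 to 8.44 in quercetin mice, 6.66 to 7.95 in Western mice and 6.87 to 12.0 in control mice. The calls of Ano1, Myh11 and Cnn1 were lost without the liver arrays and without the testis, smooth muscle and B cell arrays. The part of these cells in the Kit values was not tested.

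Ms4a2 and Fcer1a encode the beta and the alpha chain of FceRI, and the alpha chain is the part that holds IgE. The log2 signal of Ms4a2 ran from 0 to 3.43 in quercetin mice (median 0.82), from 1.57 to 3.72 in Western mice (median 3.0) and from 0 to 2.97 in control mice (median 1.95). Of the quercetin mice, 5 were below every Western mouse and the other 4 were at 2.52 to 3.43, within the Western range. The quercetin mean was 0.429-fold the Western mean (0.215 to 0.857, limma adjusted p = 0.236), and it passed the threshold only with array weights (adjusted p = 0.035). The Western mean was 1.71-fold the control mean (0.854 to 3.41, adjusted p = 0.299). All of these signals were below the array median. A second, equally dim Ms4a2 probe set gave 1.69 ± 1.04 in quercetin mice, 1.74 ± 1.4 in Western mice and 1.01 ± 0.84 in control mice.

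Fcer1a ran from 1.45 to 3.34 in quercetin mice (median 2.57), from 0 to 4.19 in Western mice (median 3.55) and from 0 to 3.69 in control mice (median 2.61). In Western mice 3 values lay at 0 to 0.033 and 6 at 2.44 to 4.19, so its mean of 2.39 ± 1.85 in Western mice described neither set (quercetin 2.52 ± 0.65, control 2.38 ± 1.34, SD, n = 9 each). The intervals were correspondingly wide, at 0.455 to 2.66 for quercetin over Western and 0.415 to 2.42 for Western over control. The promoters of both chains are shown as those of a receptor whose parts are made together, with the same words in capitals.
Ms4a2, chr19:11623670-11623969, minus strand: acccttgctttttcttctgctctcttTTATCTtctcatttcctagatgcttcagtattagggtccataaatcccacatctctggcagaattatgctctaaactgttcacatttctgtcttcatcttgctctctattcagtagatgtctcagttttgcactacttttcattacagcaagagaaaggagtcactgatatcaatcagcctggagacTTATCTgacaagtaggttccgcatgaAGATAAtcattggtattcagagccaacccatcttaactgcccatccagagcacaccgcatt
Fcer1a, chr1:173227180-173227479, minus strand: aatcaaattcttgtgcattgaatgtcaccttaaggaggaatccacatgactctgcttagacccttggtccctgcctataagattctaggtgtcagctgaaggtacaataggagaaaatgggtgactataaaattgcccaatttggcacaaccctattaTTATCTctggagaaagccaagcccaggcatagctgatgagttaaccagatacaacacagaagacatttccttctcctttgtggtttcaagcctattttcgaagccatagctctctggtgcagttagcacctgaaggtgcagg
The Ms4a2 window held 3 such words, at -224, -37 and -11, and the Fcer1a window 1, at -92. The signals of the 2 chains had a Pearson r of -0.18 over the 27 arrays with the diet means subtracted. Both were below the array median on all 27 arrays, so this r cannot tell whether the chains vary together.

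Hdc encodes histidine decarboxylase, the enzyme that makes histamine. It is made by mast cells and basophils and, when induced, by other myeloid cells. Its log2 signal had the widest spread, from 0 to 7.40 in quercetin mice (median 3.38), from 1.87 to 5.98 in Western mice (median 4.0) and from 2.60 to 7.29 in control mice (median 5.70). The lowest and the highest of all 27 values were both in quercetin mice, and 1 of 9 mice in each of the Western and quercetin groups was above the control median. The mean was 3.44 ± 2.28 in quercetin mice, 3.81 ± 1.32 in Western mice and 5.28 ± 1.67 in control mice (SD, n = 9 each). Quercetin over control was 0.28-fold (0.0904 to 0.866, limma adjusted p = 0.165), and Western over control 0.361-fold (0.117 to 1.12, adjusted p = 0.215). The second Hdc probe set gave means of 2.61 ± 1.05 in quercetin mice, 2.19 ± 1.09 in Western mice and 2.92 ± 1.89 in control mice.

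Between mice of the same diet, Cpa3, Cma1 and Mcpt4 tended to be high or low together. With the diet means subtracted, Pearson r over the 27 arrays was 0.81 for Cpa3 and Cma1, 0.81 for Cpa3 and Mcpt4 and 0.68 for Mcpt4 and Cma1, and over the 18 quercetin and Western arrays alone it was 0.81, 0.64 and 0.54. Without the 9 liver arrays it was 0.77, 0.80 and 0.67 over 18 arrays. These values are descriptions, and the genes share the array, its depth of signal and its normalization. The other 5 genes did not join them to that extent, with r to Cpa3 of 0.25 for Tpsb2, 0.41 for Fcer1a, -0.03 for Ms4a2, -0.08 for Kit and -0.13 for Hdc over the 27 arrays.

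Cpa3 was tested against the other 7 genes within each diet, which made 21 relations. Between Cpa3 and Cma1, r was 0.80 in quercetin mice (exact permutation p = 0.0128, adjusted 0.067) and 0.84 in Western mice (exact permutation p = 0.00543, adjusted 0.057), with Spearman rho of 0.85 and 0.87 (exact permutation p = 0.00607 and 0.00451, adjusted 0.0425 for both). Without the 2 mice farthest from the median of Cpa3, r was 0.65 and 0.76 over 7 mice. Between Cpa3 and Mcpt4, r was 0.74 in quercetin mice (exact permutation p = 0.0197, adjusted 0.0826, rho 0.60 with adjusted p = 0.254) and 0.49 in Western mice (exact permutation p = 0.178, adjusted 0.374). The Western mice were also split in Cpa3, with 4 at 5.40 to 5.75 and 5 at 6.20 to 6.63, a gap of 0.374 of their range against 0.305 in control mice, so the r of Western mice spans these sets. In quercetin mice the r of Cpa3 and Mcpt4 was 0.33 without the 2 farthest mice, so that relation rested on them. The control mice were in separate sets for Mcpt4 and Cpa3, each under 6 mice, and no pooled r is given for them. The only relation with an adjusted p under 0.05 by Pearson r was in control mice, between Cpa3 and Mcpt4, and it spans these 2 sets. So does the relation of Cpa3 and Fcer1a in control mice, with a rho of 0.85 (adjusted permutation p = 0.0425).

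**Figure D3:**
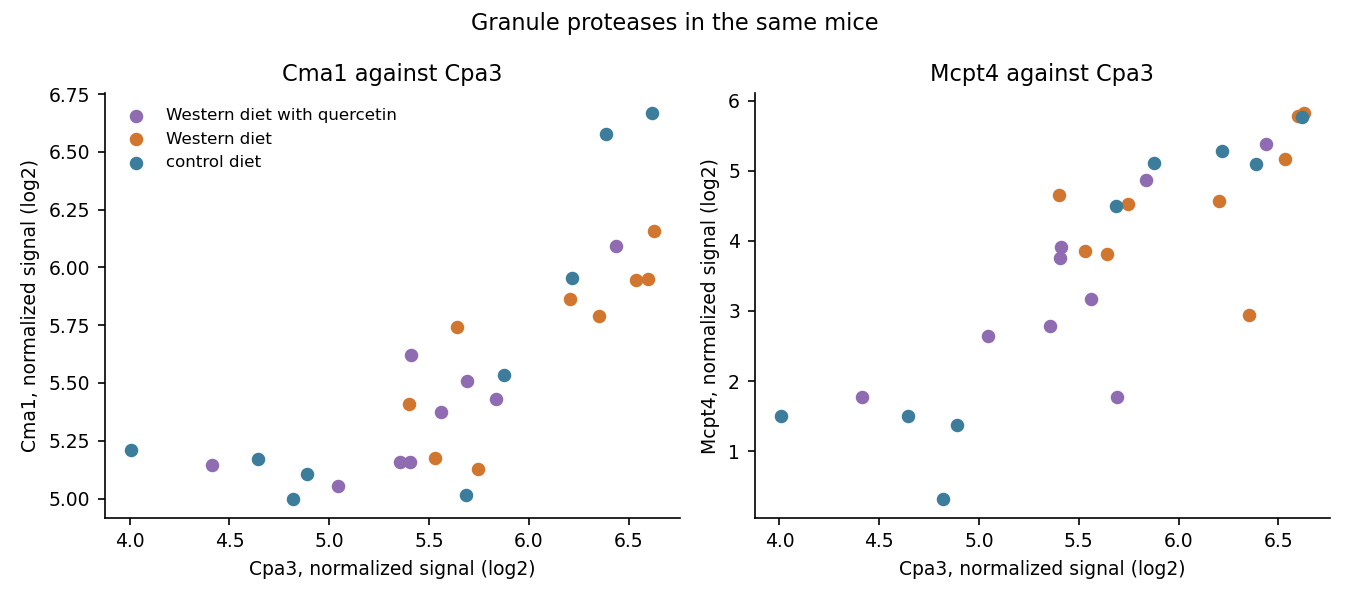
Log2 signal of Cma1 (left) and Mcpt4 (right) against that of Cpa3 in single mice on the Western diet with quercetin, the Western diet and the control diet. Mice high in Cpa3 are high in Cma1, whose lowest values are near 5.00, and 4 control mice stand apart at the lower left of the Mcpt4 panel.

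Cpa3 was also set against the mean of 6 lists of other cell types within each diet (18 relations). In Western mice r with the macrophage list was 0.85 (exact permutation p = 0.00691, adjusted 0.0622, rho 0.77 with adjusted p = 0.193), and it was 0.92 without the 2 farthest mice. Both values span the 2 sets of Western mice in Cpa3. The 4 low mice (replicates 2, 4, 6 and 9) had macrophage means of 9.53 to 10.2, against 10.5 to 10.7 in the other 5. With the fibroblast list r was 0.775 in Western mice (exact permutation p = 0.0196, adjusted 0.118). In quercetin mice r with the macrophage list was 0.20 (exact permutation p = 0.618, adjusted 0.886) and 0.82 without the 2 farthest mice, so the low value rested on them. The difference between the diets was not tested. The relation with mesothelium genes, which mark the outer lining of the fat pad, had an adjusted p under 0.05 by Pearson r in the control mice, across the 2 sets described, while r was 0.48 in quercetin mice and 0.24 in Western mice (adjusted p = 0.386 and 0.837). Of 7 mesothelium genes 1, the keratin Krt19, fell in Western against control mice (17.7% of all genes were called) and 1 of 7 passed in quercetin against control mice (6.66%), where all 7 were at an unadjusted p under 0.05 by limma (21.9% of all genes were) and the median log2 fold change of the list was -1.75. The list mean ran from 3.40 to 5.93 in quercetin mice, from 2.71 to 6.29 in Western mice and from 4.92 to 7.54 in control mice. Over the 27 arrays with the diet means subtracted, Mcpt4 had r of 0.49 with the mesothelium mean and -0.46 with the log2 ratio of the 3 prime to the 5 prime Gapdh control probe sets. Both values include the 2 sets of control mice in Mcpt4. The 4 low control mice had mesothelium means of 4.92 to 5.9, against 6.37 to 7.54 in the other 5.

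The genes above the median signal that were most like the mean of the 4 proteases, by Pearson r over the 27 arrays with the diet means subtracted, were Dpp4 (0.80), Fbln1 (0.77), Ssu72 (0.75), Rprd1a (0.74), Snrpg (0.74), Unc119b (0.71), Igfbp6 (0.71), Fbxo6 (0.69), Rpl4 (0.68) and Slc9a3r1 (0.68). Of the 9095 genes compared, 2.64% had r above 0.5. The values over 27 arrays include the 2 sets of control mice in Mcpt4. The 4 proteases were averaged without scaling. Mcpt4 and Tpsb2, with SDs within diets of 1.54 and 1.32, thus weighed more than Cpa3 (0.67) and Cma1 (0.47). Without the control arrays r was 0.56 for Dpp4 (rank 120), 0.43 for Fbln1 (rank 498) and 0.28 for Igfbp6 (rank 1478). It was 0.78 for Rprd1a (rank 2) and 0.69 for Snrpg (rank 13). Dpp4 encodes a membrane peptidase, Fbln1 the matrix protein fibulin-1 and Igfbp6 a binding protein of insulin-like growth factors.

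Of 7 measured other proteases of mast cells and basophils none passed for Western against control, quercetin against Western or quercetin against control. Of all genes 17.7%, 0.335% and 6.66% did. None of the 7 was at an unadjusted p under 0.05 by limma, beside 30.7%, 13.7% and 21.9% of all genes. The list mean was low, at 1.32 to 2.4 in quercetin mice, 0.814 to 2.59 in Western mice and 1.36 to 2.92 in control mice. Mcpt8, the protease that marks mouse basophils, averaged 0.41 ± 0.62 in quercetin mice, 1.26 ± 1.15 in Western mice and 1.13 ± 0.92 in control mice. Mcpt2, a protease of mucosal mast cells, averaged 1.49 ± 0.73 in quercetin mice, 1.19 ± 0.85 in Western mice and 1.75 ± 1.08 in control mice (SD, n = 9 each).

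Of 12 measured genes of the granule matrix and its release, 8 rose in Western against control mice and none fell (limma, adjusted p under 0.05), beside 17.7% of all genes called in either direction. Without the 9 liver arrays 4 of the 12 rose, beside 8.66% of all genes. Srgn, the proteoglycan core that carries heparin in granules, was 11.47 ± 0.15 in Western mice and 11.02 ± 0.20 in control mice (adjusted p = 0.000219). Snap23, a membrane fusion protein of granule release, was 9.44 ± 0.14 in Western mice and 8.93 ± 0.23 in control mice (adjusted p = 9.99e-05). Stxbp2, a protein that binds syntaxins, and Hexa, a lysosomal hexosaminidase found in granules, rose by 0.44 and 0.59 log2 units.

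Of 13 other receptors of mast cells, 7 rose in Western against control mice and none fell (17.7% of all genes were called). Without the liver arrays 4 of 13 rose (8.66% of all genes), and without the testis, smooth muscle and B cell arrays 4 rose and 1 fell (16.6%). Fcer1g encodes the gamma chain that FceRI shares with other Fc receptors of macrophages. It was 10.74 ± 0.59 in Western mice and 9.08 ± 0.50 in control mice, a rise of 1.66 log2 units (adjusted p = 5.42e-05), while the alpha and the beta chains did not pass. Fcgr3, an IgG receptor, rose by 1.54 and Cd200r1, an inhibitory receptor, by 2.30 log2 units. Csf2rb, the shared chain of the receptors for IL-3, IL-5 and GM-CSF, rose by 0.41.

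Of 25 measured genes of FceRI and Kit signalling, 11 rose in Western against control mice, and 1, Stim1, the calcium sensor of the endoplasmic reticulum, fell (log2 fold change -0.29, chosen after its value was seen), beside 17.7% of all genes. Without the liver arrays 10 rose and none fell, so the call of Stim1 was lost (8.66% of all genes were called). Without the testis, smooth muscle and B cell arrays 12 rose and 1 fell (16.6%). Syk, the kinase that the gamma chain recruits, was 8.56 ± 0.50 in Western mice and 7.41 ± 0.48 in control mice (adjusted p = 0.00024). The adaptors Lat2, Lcp2 and Grb2 rose by 2.12, 1.02 and 0.61 log2 units. For Lat2 the quercetin mice were at 6.23 ± 0.79 against 7.51 ± 0.62 in Western mice, with an adjusted p of 0.0588.

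The eicosanoid genes held Hpgds, the widest change of Western against control among the 94 measured genes of the 8 lists. Of 9 measured, 4 rose in Western against control mice and none fell (17.7% of all genes were called). In quercetin against control mice, which share the control group with the first comparison, 4 of 9 also rose (6.66%). Among the other receptors of mast cells 5 of 13 rose there. Omitting the liver arrays left 4 of 9 eicosanoid genes higher for Western against control (8.66%) and 1 of 9 for quercetin against control (1.1%). Omitting the testis, smooth muscle and B cell arrays left 4 and 3 of 9 higher (16.6% and 6.98%). Hpgds encodes the synthase of prostaglandin D2 and was 6.75 ± 0.84 in Western mice (5.51 to 7.77) and 4.13 ± 0.39 in control mice (3.54 to 4.50), so these groups did not overlap (log2 fold change 2.61, adjusted p = 2.34e-05). In quercetin mice Hpgds was 5.27 ± 0.99, 1.47 log2 units under the Western mean with an adjusted p of 0.0591. Cysltr1, a receptor for cysteinyl leukotrienes, rose by 1.42, Alox5ap, the activating protein of 5-lipoxygenase, by 1.39 and Ltc4s, the leukotriene C4 synthase, by 0.62 log2 units in Western against control mice.

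Among 11 transcription factors 4 passed (17.7% of all genes did). Mitf, Spi1 and Runx1 rose in Western against control mice by 0.75, 1.61 and 1.21 log2 units, and Ikzf2 was lower by a log2 fold change of -0.82. Counts for the 11 were 3 higher and 1 lower without the liver arrays (8.66% of all genes were called). They were 2 higher and 3 lower without the testis, smooth muscle and B cell arrays (16.6%). Mitf drives mast cell development and granule genes, and Spi1 (PU.1) is a factor of myeloid cells. Of 11 growth factors and ligands 2 passed, a share near the 17.7% of all genes, and the median log2 fold change of the list was -0.13. The 2 were the chemokine Cxcl12 and Tgfb1, which rose by 0.84 and 0.85 log2 units. Kitl, the gene of stem cell factor, averaged 10.35 ± 0.14 in quercetin mice, 10.44 ± 0.095 in Western mice and 10.56 ± 0.36 in control mice (adjusted p = 0.444 for Western against control), and was named after its values were seen. Of 6 genes of histamine receptors and breakdown none passed in Western against control mice (17.7% of all genes did). At an unadjusted p under 0.05 by limma there was 1 of 6 (30.7% of all genes). In quercetin against Western mice 2 of 6 were at that level (13.7%). Hrh2 averaged 4.44 ± 0.34 in quercetin mice, 3.71 ± 0.99 in Western mice and 4.35 ± 0.64 in control mice, and Hrh4 averaged 1.73 ± 1.48 in quercetin mice, 1.34 ± 1.12 in Western mice and 2.54 ± 0.88 in control mice. In quercetin against Western mice none of the 94 genes passed limma's adjusted test, which 0.335% of all genes did. At an unadjusted p under 0.05 by limma there were 34 (13.7% of all genes).

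**Figure D4:**
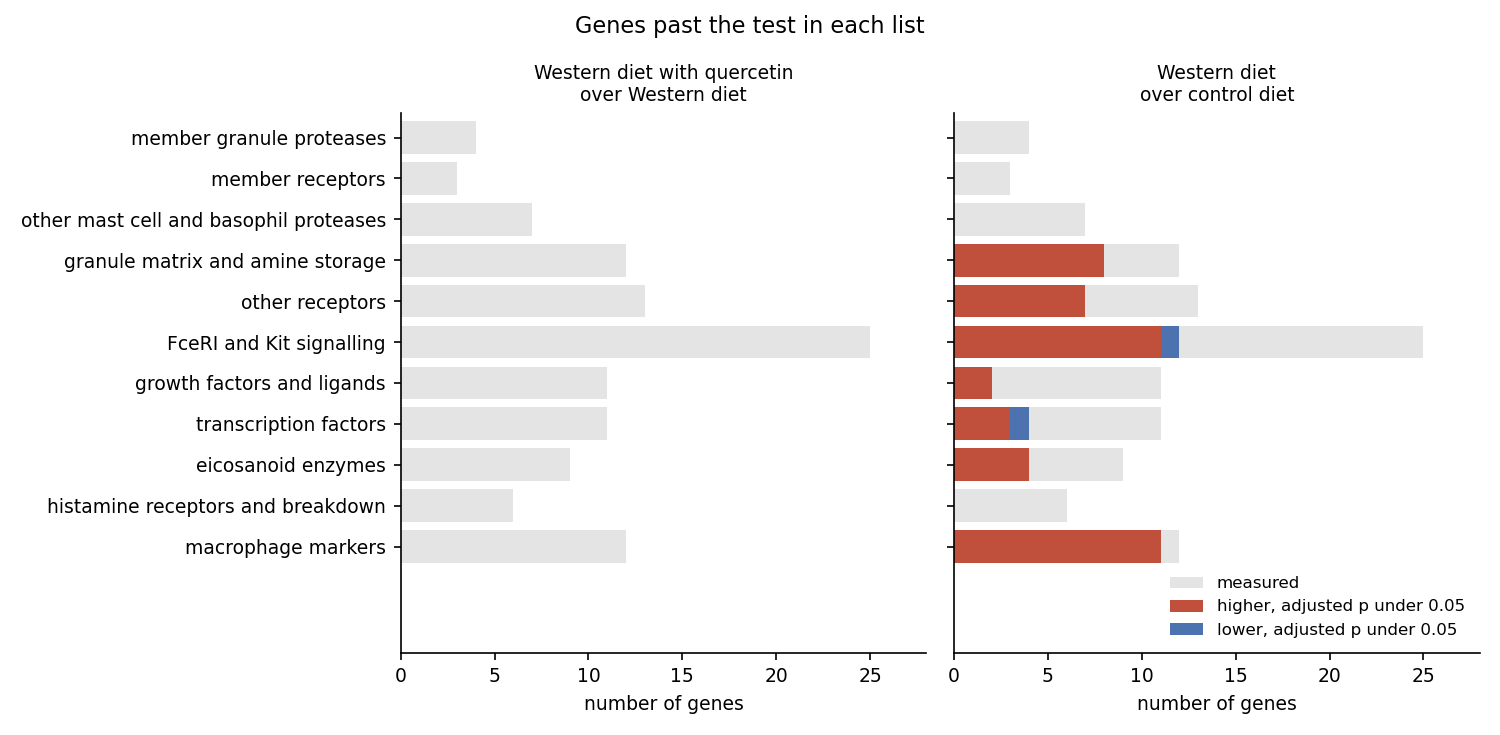
Number of measured genes (grey) in the member groups, in 8 lists of genes that mast cells use and in a macrophage list, with those higher (red) or lower (blue) at an adjusted p under 0.05 by limma, for quercetin over Western and Western over control. In Western over control 8 of 12 granule genes and 11 of 12 macrophage genes are red, and the rows of the members have no colour.

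Macrophages share many of these genes, and their markers moved in the same comparison. Of 12 macrophage markers 11, Mertk being the other, rose in Western against control mice (17.7% of all genes were called), with a list mean of 9.53 to 10.7 in Western mice (median 10.5) and 8.61 to 9.67 in control mice (median 8.91). In quercetin mice the list mean was 9.05 to 10.2 (median 9.48). None of the 12 passed against the Western diet, which 0.335% of all genes did. At an unadjusted p under 0.05 by limma there were 11 of 12 (13.7% of all genes). The part of macrophages in the rise of the shared genes was not tested. None of 3 measured basophil markers passed for Western against control, quercetin against Western or quercetin against control. Of all genes 17.7%, 0.335% and 6.66% did. Their most specific genes were at the floor on 3 (Mcpt8) and 9 (Cd200r3) of 27 arrays. The basophil mean ran from 1.82 to 3.13 in quercetin mice, from 2.19 to 3.72 in Western mice and from 1.99 to 3.42 in control mice. Il3ra, the IL-3 receptor chain in that list, averaged 5.99 ± 0.33 in Western mice and 5.57 ± 0.31 in control mice (limma adjusted p = 0.0956). Of 4 eosinophil genes, Siglecf alone rose in Western against control mice (17.7% of all genes were called). It was 3.88 ± 0.93 in Western mice and 2.40 ± 0.81 in control mice (limma adjusted p = 0.0233), at a signal below the median gene. Its call was lost without the liver arrays and without the testis, smooth muscle and B cell arrays. Ccr3 was at the floor on 11 arrays.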

How the data were processed

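The deposited values are linear signal intensities, 1 per probe set and mouse, which the authors computed from Affymetrix mouse genome array scans with Microarray Suite 5.0. Array medians ran from 25.2 to 54.4, and means after trimming 2% at each end from 137 to 222. Here 45101 probe sets were quantile-normalized (limma 3.58.1, R 4.3.3), floored at 1 and put on the log2 scale. The 64 control probe sets, the 932 annotated to several genes and the 9160 with no gene name were then left out, and 34945 remained. Each of 18193 genes kept the probe set with the highest mean. Differences were tested with limma's lmFit and eBayes (variance trend, 1 mean per diet, all 27 arrays, two-sided). P-values were adjusted over all genes (Benjamini-Hochberg), and the threshold was 0.05. Intervals are at 95% and unadjusted. The fit was checked on simulated data. The methods' test of the study was an alternative, as were other scalings, floors, probe set choices, weights, a replicate block, and leaving out mice or arrays with other-tissue markers. Leaving out arrays with high liver markers was added after seeing the data. Correlations used exact two-sided permutation tests (scipy 1.17.1).

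The members and the gene lists were chosen with earlier results of these data known. Named genes were all members and, per list, up to 4 genes past the threshold in Western against control or quercetin against Western by smallest p, or the 2 of smallest p where none passed. The likeness to other genes named the 10 highest. Promoter sequences came from RefSeq (GRCm38.p6). Labels give titles with a replicate number, and no scan date or slide was given in the sources used here.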

Additional observations from a re-analysis of the deposited data

How the results depend on the processing

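The counts of mast cell genes past the threshold stayed at 0 in every setting for Western against control, and under the methods' test in all 3 comparisons. That test's step between pairs was not adjusted over all genes. Of 18193 genes it called 1348 higher and 652 lower for Western against control, and 473 higher and 532 lower for quercetin against Western. For quercetin against control it called 976 higher and 286 lower. The count of mast cell genes for quercetin against Western was 1 (Ms4a2, lower) with array weights. For quercetin against control it was 1 (Kit, lower) with array weights and with genes above the median mean, and ran from 0 to 1 when 1 mouse was left out (1 without control replicate 6 or quercetin replicate 6). Over all genes, the number called ran from 1575 to 4130 (3220 as reported) for Western against control, from 0 to 1379 (61) for quercetin against Western and from 200 to 1740 (1212) for quercetin against control. It was lowest without the 9 liver arrays, a setting chosen after seeing the data that leaves 18 arrays, and highest with array weights, apart from leaving out single mice (2719 to 3979, 0 to 306 and 708 to 1872). For quercetin against Western the number was also 0 at an adjusted p under 0.01 and with the mean of all probe sets. The same held without the variance trend and without the testis-marker arrays.

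Replicate numbers did not pair the mice. The deviations of same-numbered mice from their diet means had correlations from -0.33 to 0.18 over genes. With a replicate block the counts of mast cell genes stayed at 0, Kit in quercetin against control had an adjusted p of 0.0861, and 2968 genes passed for Western against control, 8 (61 without the block) for quercetin against Western and 1052 for quercetin against control.

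Some fold changes turned sign. Without the liver arrays Fcer1a was -1.27 for quercetin against Western, and Mcpt4 was 1.09 and Cma1 0.070 for quercetin against control. For Western against control, Fcer1a was -0.019 without normalization, -0.30 without testis-marker arrays and -0.19 without all marker arrays, where Cma1 was -0.056, and -0.29 to 0.30 without 1 mouse. For quercetin against Western, Hdc was 0.12 with a floor of 32, 0.038 with a pseudocount of 16, 0.025 as the mean of all probe sets and -0.86 to 0.061 without 1 mouse, and Fcer1a was -0.11 with the pseudocount, -0.034 with array weights and -0.16 to 0.36 without 1 mouse. For quercetin against control, Mcpt4 was 0.018 without normalization and -0.43 to 0.26 without 1 mouse, and Cpa3 was -0.0089 with a median shift, -0.12 with the floor, -0.030 with the pseudocount, -0.043 with array weights, -0.21 without testis-marker arrays, -0.090 without all marker arrays and -0.18 to 0.15 without 1 mouse. Fcer1a was -0.027 with the pseudocount and -0.16 to 0.30 without 1 mouse, Ms4a2 was 0.11 as the mean of all probe sets, and Tpsb2 ran from -0.49 to 0.072 without 1 mouse. With the floor of 32, above every Ms4a2 value, its fold change was 0.

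Of the relations of Cpa3, those to other members with an adjusted p under 0.05 by Pearson r numbered 1 as reported, 3 without normalization, 4 with the floor and 6 with the pseudocount, and 0 to 4 without 1 mouse. Those to cell type lists numbered 1, 3 without normalization and 3 with a median shift, and 0 to 3 without 1 mouse. By Spearman rho 3 relations to other members had an adjusted p of 0.0425. The cause of these shifts was not tested.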
